A study of Mus musculus with 18 samples.

Results

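Mouse cortical neuronal cultures that overexpressed Psmb8 were compared with cultures that overexpressed Psmb5, by RNA sequencing. All genes with a mean of at least 1 CPM (the usual count scaled to library size) over the 12 libraries of these groups were described, 14313 of 15671 genes tested and 43629 gene IDs in the count table. Psmb5 and Psmb8 themselves were kept apart. Libraries with the same replicate number were taken as pairs, which gave 6 pairs.

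The study holds 18 libraries of poly(A)-enriched RNA, 6 from each of 3 groups. Cultures of cortical neurons were transduced with lentivirus after 7 days in vitro and harvested 10 days later, per the labels' protocols. The virus carried the red fluorescent protein mScarlet (group mSc, the control), Psmb5 or Psmb8, so both compared groups had been transduced and both carried an overexpressed proteasome subunit. The treatment text attached to the samples names an Ifng construct, whereas the treatment tags and the series text name the subunits; Ifng had 11 counts in all 18 libraries together and at most 3 in any one. Age and strain of the animals, the promoter of the constructs, the share of cells transduced and the meaning of a replicate number were not stated in the sources used. Nothing in the labels says that libraries of a group came from separate animals, and the p-values therefore reflect only library-to-library spread, possibly technical.

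Library totals lay between 16055974 and 19640543 counts in the Psmb5 group and between 16091906 and 18630396 in the Psmb8 group. Neuronal markers were abundant, and Gad1 and Gad2, the GABA-synthesising enzymes of inhibitory neurons, averaged 254 and 132 CPM in the Psmb5 group. Astrocyte markers summed to 4443 to 9398 CPM and oligodendrocyte lineage markers to 254 to 1152 CPM per Psmb5 library, so the cultures held glia. Only 3 of 15 microglia markers and 5 of 15 vascular and fibroblast markers reached 1 CPM, and the endothelial gene Cldn5 had 0 counts.

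The proteasome degrades ubiquitin-tagged proteins in a barrel, the 20S core, that is capped by the 19S regulatory particle. Psmb5 encodes the constitutive core subunit that cuts after hydrophobic residues, and Psmb8 encodes its interferon-inducible counterpart, which takes the same place in immunoproteasomes and favours peptides for display on MHC class I. Neurons normally hold mostly constitutive proteasomes. The comparison therefore sets an inducible subunit against the constitutive one it replaces.

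The transgene transcripts separated the groups. Psmb5 (chromosome 14, 54614119 to 54618022, minus strand of GRCm38, 3 exons) ranged from 238 to 561 CPM in Psmb5 libraries, with a median of 476 and a mean of 451 ± 113 (SD, n = 6). In Psmb8 libraries it ranged from 45.8 to 51.1 CPM, with a median of 48.1, and in mSc libraries from 41.0 to 45.1. The groups did not overlap, and the log2 difference of Psmb8 minus Psmb5 libraries was -3.19 (SE 0.11, edgeR adjusted p = 1.1e-13). Library 2 was the lowest of the Psmb5 group.

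Psmb8 (chromosome 17, 34197721 to 34201454, plus strand, 6 exons) ranged from 546 to 1056 CPM in Psmb8 libraries, with a median of 944 and a mean of 887 ± 198 (SD, n = 6). It ranged from 0.488 to 14.6 CPM in Psmb5 libraries, with a median of 2.84, and from 0.840 to 19.4 in mSc libraries. The highest endogenous values were those of libraries 3 and 6 in both of these groups. The log2 difference was 7.72 (SE 0.35, edgeR adjusted p = 7.4e-12), and library 2 was again the lowest among those that carried the transgene. Both differences passed the threshold under each of 15 other settings. The count table cannot separate transgene from chromosomal transcripts.

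**Figure D1:**
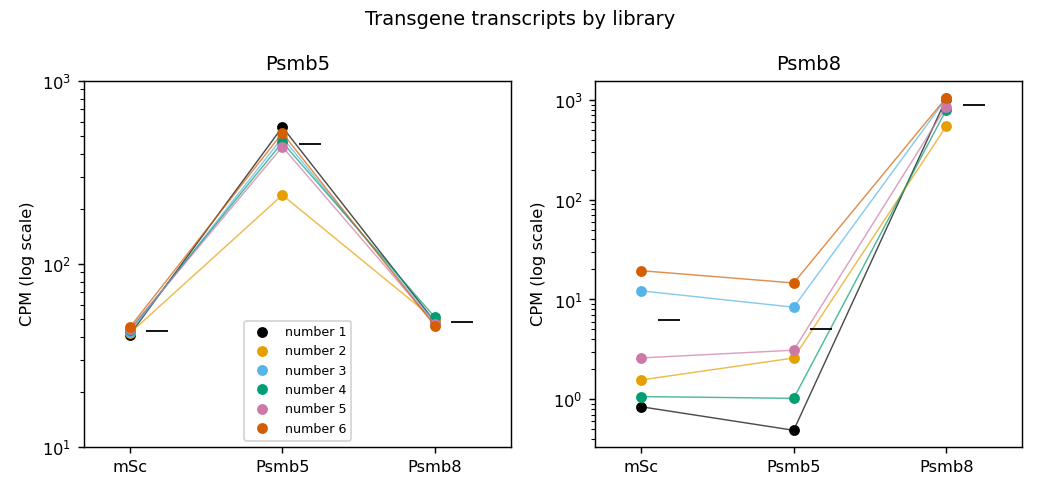
CPM (log scale) of Psmb5 and Psmb8 in every library of the mSc, Psmb5 and Psmb8 groups; lines join libraries with the same number and short bars are group means. Psmb5 lay between 238 and 561 CPM in its own group and at 51.1 CPM or less elsewhere, and Psmb8 between 546 and 1056 CPM in its own group and at 19.4 CPM or less elsewhere.

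Across the other genes the groups were close to each other. With the replicate number as a block, edgeR's quasi-likelihood test with Benjamini-Hochberg adjustment called 4 genes at an adjusted p under 0.05, 0.0279% of the genes described. Mgst3 rose in Psmb8 against Psmb5, the only one to do so (0.00699%), and Lsm11, Slc25a22 and Pdpn fell (0.021%). Without the block edgeR called none, with 207 of 15669 genes at an unadjusted p under 0.05. The log2 differences had a median of 0.00, and 90% of them lay between -0.19 and 0.16. An unadjusted p under 0.05 was found for 560 genes with higher values in Psmb8 (3.91%) and 579 with lower values (4.05%), 1139 in all (7.96%) against the 716 that a uniform distribution of p would give. More than a 1.5-fold difference was found for 4 genes in the higher direction (0.0279%) and 16 in the lower (0.112%). None of these passed the test. The 4 averaged 1.02 to 1.71 CPM, near the minimum, and the 16 averaged 1.04 to 6.56 CPM.

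Separation of all libraries implies the same direction in all pairs, so it is the rarer pattern by construction. Psmb8 lay above Psmb5 in 6 of 6 pairs for 344 genes (2.4%) and below in 6 of 6 for 324 (2.26%). Random directions would give 1.56% each way. The 6 libraries of one group lay wholly above the 6 of the other for 4 genes (0.0279%) and wholly below for 4 (0.0279%). These genes, singled out after their values were seen, were Mgst3, Prkcz, Chmp1a and Junos above, and Nme2, Mir99ahg, AA413626 and Gm25047 below. Only Mgst3 passed the test. Junos, Gm25047, AA413626 and Nme2 averaged just 1.02 to 2.52 CPM, and Chmp1a had a log2 difference of 0.07. Prkcz, which encodes an atypical protein kinase C, averaged 173 CPM in Psmb5 and 189 CPM in Psmb8 libraries, a log2 difference of 0.13 (SE 0.03) that did not pass the test (edgeR adjusted p = 0.211).

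**Figure D2:**
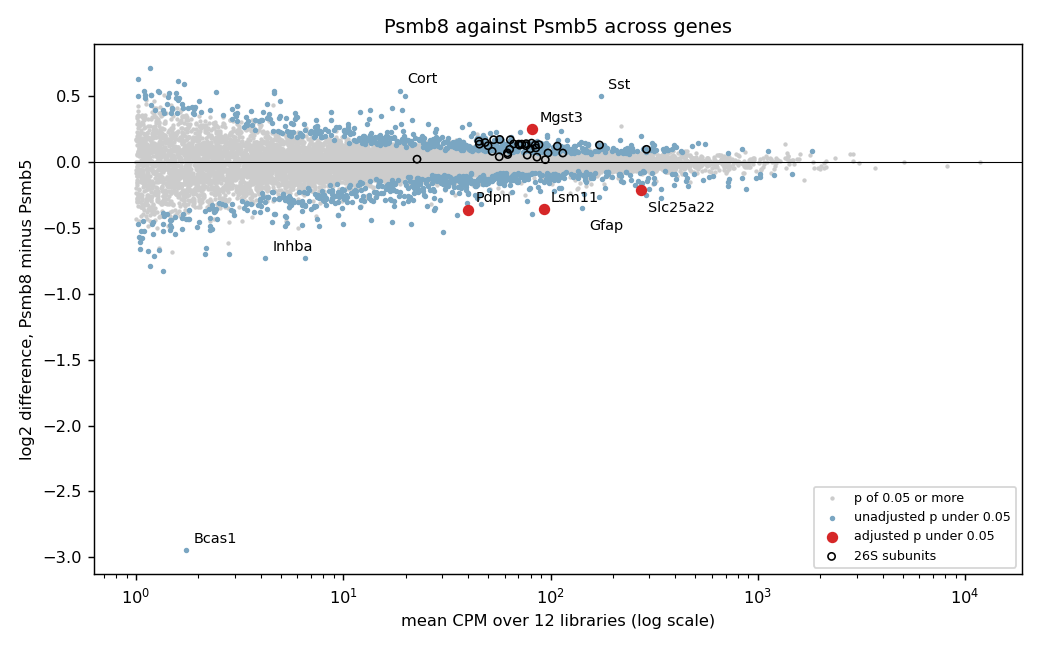
Fitted log2 difference of Psmb8 minus Psmb5 against mean CPM over the 12 libraries (log scale), 1 point per gene, without Psmb5 and Psmb8. The 4 genes that passed the test are red, and the circled 26S proteasome subunits all lie above 0.

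Mgst3 encodes a microsomal glutathione S-transferase, a membrane enzyme that uses glutathione on lipid peroxides (chromosome 1, 167371966 to 167393841, minus strand, 6 exons). It ranged from 67.9 to 78.9 CPM in Psmb5 libraries (median 75.5) and from 84.3 to 92.7 in Psmb8 libraries (median 88.3). Every Psmb8 library lay above every Psmb5 library, and the control libraries, at 67.5 to 81.1 CPM, lay with the Psmb5 group. The means were 74.6 ± 4.31 and 88.9 ± 3.33 CPM (SD, n = 6), a log2 difference of 0.25 (SE 0.04, edgeR adjusted p = 0.0075) that was positive in 6 of 6 pairs. The adjusted p was 0.0578 without replicate 3 and 0.0548 without replicate 6.

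Lsm11 encodes a protein of the U7 small nuclear ribonucleoprotein, which processes the ends of histone messenger RNAs (chromosome 11, 45928269 to 45944935, minus strand, 4 exons). It ranged from 87.5 to 128 CPM in Psmb5 libraries (median 104) and from 64.5 to 95.1 in Psmb8 libraries (median 83.0). The ranges overlapped, but each Psmb8 library lay below the Psmb5 library of its number. The log2 difference was -0.35 (SE 0.04, edgeR adjusted p = 2.2e-04), and it passed the test with any single replicate left out. Against mSc, at 97.8 to 131 CPM, the log2 difference was -0.43 for Psmb8 and -0.07 for Psmb5.

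Slc25a22 encodes a mitochondrial glutamate carrier (chromosome 7, 141429744 to 141437892, minus strand, 10 exons). It ranged from 261 to 328 CPM in Psmb5 libraries (median 293) and from 225 to 283 in Psmb8 libraries (median 253). It was lower in Psmb8 in 6 of 6 pairs, although the ranges overlapped, with a log2 difference of -0.21 (SE 0.04, edgeR adjusted p = 0.026). This call was the least stable of the 4: the adjusted p was between 0.0848 and 0.230 when replicate 1, 2, 3, 5 or 6 was left out. The difference from mSc was -0.28 for Psmb8 and -0.07 for Psmb5 on the log2 scale.

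Pdpn encodes podoplanin, a membrane glycoprotein of glial and epithelial cells (chromosome 4, 143267431 to 143299564, minus strand). It ranged from 29.3 to 80.7 CPM in Psmb5 libraries (median 41.5) and from 18.9 to 60.1 in Psmb8 libraries (median 32.7). Library 4 was the highest of each group, and the pairs, not the overlapping ranges, carried the difference, which was negative in 6 of 6 of them. The log2 difference was -0.36 (SE 0.06, edgeR adjusted p = 0.0088), and the adjusted p was 0.0509 without replicate 1 and 0.189 without replicate 2. Against mSc the Psmb5 group was at 0.24 and the Psmb8 group at -0.12 on the log2 scale, so here the control lay between the compared groups. Of 14 astrocyte markers, 13 had a fitted log2 difference below 0 and none passed the test. In pairs 1 to 6 the means of these markers were 0.06, -0.14, -0.21, -0.31, -0.02 and 0.02. Pdpn was at -0.63, -0.47, -0.23, -0.43, -0.15 and -0.28 in the same pairs. The part of these markers in the result was not tested.

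**Figure D3:**
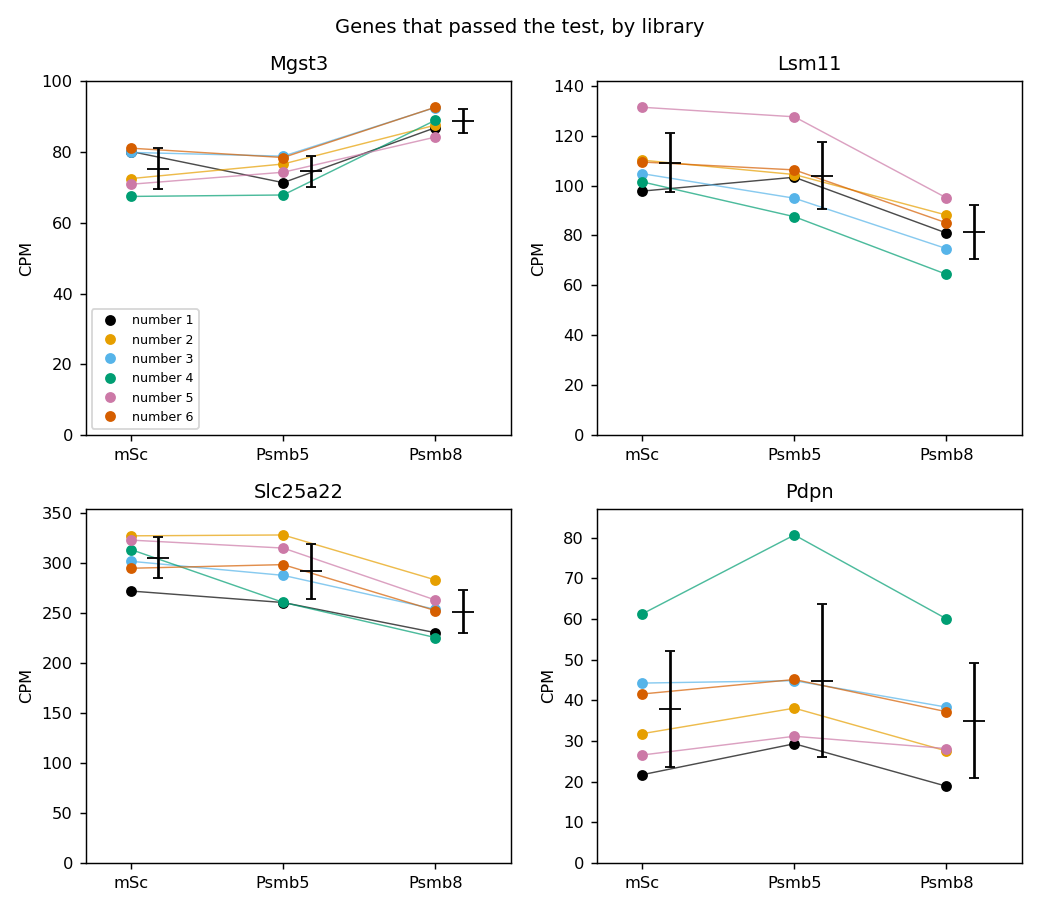
CPM of Mgst3, Lsm11, Slc25a22 and Pdpn in every library of the mSc, Psmb5 and Psmb8 groups; lines join libraries with the same number, and black bars give the group mean ± SD (n = 6). Every line falls from Psmb5 to Psmb8 for Lsm11, Slc25a22 and Pdpn, and rises for Mgst3.

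The genes ranked next did not pass the test. On the higher side, Them6, a thioesterase family gene, averaged 11.6 CPM in Psmb5 and 15.2 CPM in Psmb8 libraries, a log2 difference of 0.40 (SE 0.08, edgeR adjusted p = 0.0852). Cort, which encodes the interneuron peptide cortistatin, ranged from 9.17 to 24.4 CPM in Psmb5 and from 15.1 to 33.1 in Psmb8 libraries, a log2 difference of 0.54 (SE 0.11, adjusted p = 0.0852). The related peptide gene Sst (somatostatin) ranged from 98.8 to 242 CPM and from 141 to 305 CPM, a log2 difference of 0.50 (SE 0.11, adjusted p = 0.116). Cort was higher in 6 of 6 pairs and Sst in 5 of 6, with pair 4 the lowest for both.

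Of the remaining higher-ranked genes, Psmc4, Rnf112, Hs3st2, Tm2d2, Bscl2, Gpi1 and Cntnap4 were higher in 6 of 6 pairs, with log2 differences between 0.13 and 0.29 and adjusted p between 0.0878 and 0.184. Psmc4 encodes an ATPase of the 19S particle, Hs3st2 a heparan sulfate sulfotransferase, Bscl2 the lipid droplet protein seipin and Gpi1 a glycolytic isomerase. Hsd11b1, whose product regenerates active glucocorticoid, was at 0.54 (SE 0.13, adjusted p = 0.206) and had 5 of 6 pairs higher.

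On the lower side all 9 uncalled genes were lower in 6 of 6 pairs. Tmtc2 was at -0.47 (SE 0.09, edgeR adjusted p = 0.0628), Inhba, which encodes a subunit of activin A, at -0.73 (SE 0.16, adjusted p = 0.150), and the metallothionein genes Mt1 and Mt2 at -0.27 and -0.29. Arhgap33, Kctd13, Tmbim1 and Wdr6 lay between -0.28 and -0.17, with adjusted p of 0.0878 to 0.0971. The fitted difference of Bcas1, a gene of the oligodendrocyte lineage, was by far the largest at -2.95 (SE 0.60, adjusted p = 0.0878). It rested on library 4, with 13.4 CPM in Psmb5 and 1.04 in Psmb8, and library 1, with 4.17 and 1.21 CPM; the other 4 Psmb5 libraries lay at 0.342 CPM or less.

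**Figure D4:**
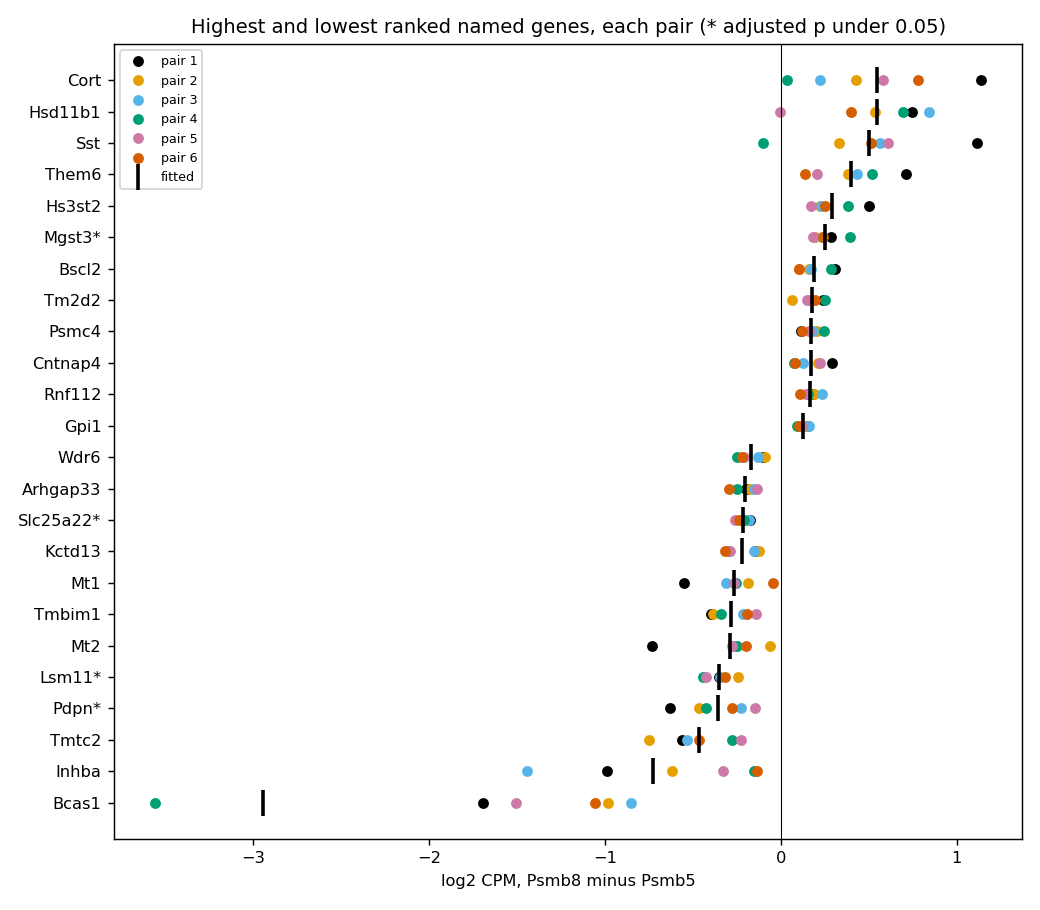
Log2 CPM of Psmb8 minus Psmb5 in each of the 6 pairs (points) and the fitted log2 difference (bars) for the 12 highest and 12 lowest ranked named genes. Points of Mgst3, Lsm11, Slc25a22 and Pdpn (asterisks) lie on one side of 0, and Bcas1 spreads from -0.85 to -3.56.

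Among the gene lists, the subunits of the 26S proteasome lay together on the higher side. All 32 subunits other than Psmb5 had a log2 difference above 0, with a median of 0.13 and a range of 0.02 to 0.17, where 50.1% of all genes described were above 0. None passed the test after adjustment, but 23 had an unadjusted p under 0.05 in this direction (71.9%, against 3.91% of all genes) and none in the other. Psmb8 lay above Psmb5 in 6 of 6 pairs for 17 of them (53.1%, against 2.4%). Ranked by test statistic with the sign of the difference, 26 stood in the top 10% of the genes described (81.2%, against 10%). This rank reflects the spread of a gene as well as the size of its difference. The mean over the 32 genes was positive in 6 of 6 pairs, from 0.06 to 0.20, with a mean of 0.11 ± 0.06 (SD), or 7.84% higher. The median against mSc was 0.13 for Psmb8 and 0.02 for Psmb5. Without the block, 32 were above 0 and 18 had an unadjusted p under 0.05, where 0.713% of all genes had one in that direction.

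Genes of the proteasome share a known regulator, the transcription factor NRF1 (Nfe2l1), which binds antioxidant response elements. Promoters from 250 bases before to 50 after the start, from RefSeq's annotation of GRCm38.p6, were found for 26 of the 32 subunit genes and searched on both strands for the core letters TGACNNNGC of that element. A match was found in 5 of 28 of these promoters (17.9%) and in 4071 of all 32851 promoters of the same length (12.4%). Of the subunits discussed next, Adrm1 has a match starting 162 bases before the start (chr2:180171338-180171637, plus strand; match in capitals), and Psmc4, the subunit gene with the smallest p, has none in this window (chr7:28050043-28050342, minus strand). A match in letters is not a measured binding site.
Adrm1: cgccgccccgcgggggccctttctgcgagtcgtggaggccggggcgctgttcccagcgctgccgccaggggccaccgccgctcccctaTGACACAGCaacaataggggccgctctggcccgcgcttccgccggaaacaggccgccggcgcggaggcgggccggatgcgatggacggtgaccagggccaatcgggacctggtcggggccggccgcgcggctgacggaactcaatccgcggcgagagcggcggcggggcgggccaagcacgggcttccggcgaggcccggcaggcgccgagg
Psmc4: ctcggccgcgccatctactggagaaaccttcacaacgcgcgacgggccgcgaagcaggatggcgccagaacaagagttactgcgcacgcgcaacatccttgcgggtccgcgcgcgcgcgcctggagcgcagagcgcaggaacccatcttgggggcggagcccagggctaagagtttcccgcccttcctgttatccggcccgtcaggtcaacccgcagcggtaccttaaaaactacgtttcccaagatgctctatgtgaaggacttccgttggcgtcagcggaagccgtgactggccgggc

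By role, the ATPases of the 19S base, which unfold substrates, lay on the higher side, 6 of 6. Each had an unadjusted p under 0.05, the median was 0.14, and 6 of 6 stood in the top 10%. Psmc4 ranged from 54.3 to 64.9 CPM in Psmb5 libraries (median 60.2) and from 62.7 to 73.5 in Psmb8 libraries (median 66.8), which overlapped only slightly. Its log2 difference was 0.17 (SE 0.03, edgeR adjusted p = 0.0878). Summed over the 6 genes, the ATPases lay at 422 to 460 CPM in Psmb5 and 463 to 546 CPM in Psmb8 libraries. These sums were only narrowly apart, and the mSc sums, at 417 to 463 CPM, reached the lowest Psmb8 sum. Taken singly, 0 of the 32 subunits separated the groups in this direction, where 0.0279% of all genes did.

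The 13 other 19S subunits include ubiquitin receptors, a deubiquitinase and scaffolds. Of these, 8 had an unadjusted p under 0.05 and 13 were above 0, with a median of 0.10. Examples were the deubiquitinase Psmd14 at 0.17, the scaffold Psmd11 at 0.15 and the ubiquitin receptor Adrm1 at 0.14. Adrm1 averaged 72.5 ± 4.94 CPM in Psmb5 and 79.9 ± 1.46 CPM in Psmb8 libraries (SD, n = 6), higher in 6 of 6 pairs.

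In the 20S core, 4 of 7 alpha subunits, which form the gated outer rings, and 5 of 6 beta subunits, which form the inner rings, had an unadjusted p under 0.05, with medians of 0.10 and 0.12. Psma2 was at 0.17, Psma5 at 0.16 (edgeR adjusted p = 0.266), Psmb2 at 0.15, Psmb3 at 0.14 and Psmb7 at 0.13. The alpha subunits averaged -0.05 in pair 1 and were positive in the other 5 pairs. Assembly chaperones and other regulators did not lie with the subunits: 1 of 16 had an unadjusted p under 0.05 and the median was 0.02. That gene was Pomp, the chaperone of core maturation, at 0.16 (adjusted p = 0.290).

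Inhibitory neuron markers had the highest median of the lists, 0.17, with 16 of 19 above 0 and 13 in the top 10%. None passed the test, 11 had an unadjusted p under 0.05 in the higher direction and 1, Lamp5 at -0.23, in the lower. Over all genes, 50.1% were above 0, and 3.91% and 4.05% had such a p in these directions. Gad1 averaged 254 CPM in Psmb5 and 293 CPM in Psmb8 libraries, a log2 difference of 0.20, and Gad2 was at 0.16, both higher in 6 of 6 pairs. The peptide gene Npy was at 0.50, and the transcription factors of interneuron fate Lhx6, Dlx2 and Dlx5 were at 0.32, 0.34 and 0.34.

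The size of this difference varied between pairs. The list's mean was 0.43 in pair 1, between 0.12 and 0.25 in pairs 2, 3, 5 and 6, and -0.13 in pair 4. With replicate 1 left out, the median was 0.12 and 15 of 19 lay above 0. Then 7 had an unadjusted p under 0.05 in the higher direction, where 3.17% of all genes had one. With replicate 4 left out, 18 lay above 0 and 14 had such a p, where 4.6% of all genes had one. Gad1, Npy and Sst then passed the test after adjustment. No member passed when any of the other 5 replicates was left out. In bulk RNA, more cells of a type and more RNA per cell cannot be told apart. Excitatory neuron markers had a median of 0.03, with 9 of 16 above 0 and none at an unadjusted p under 0.05.

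Neuropeptide genes were mixed, with a median of 0.06 and 11 of 18 above 0. Beside Sst, Npy and Cort, which also belong among interneuron genes, Crhbp (the binding protein of corticotropin-releasing hormone) was at 0.42 and Nppc (C-type natriuretic peptide) at 0.25, while Pdyn (prodynorphin) was at -0.40. Without replicate 1 the median was -0.01. None of these passed the test.

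Markers of glia lay on the lower side. Of 14 astrocyte markers, 1 was above 0, the median was -0.07, and 4 had an unadjusted p under 0.05 in the lower direction (4.05% of all genes had). The glutamate transporter Slc1a3 was at -0.18, Aldh1l1 at -0.20 and Sox9 at -0.13. Without replicate 3 the median was -0.05 and 2 had such a p. Gfap, an intermediate filament of astrocytes, ranged from 68.0 to 390 CPM in Psmb5 (median 117) and from 68.4 to 311 CPM in Psmb8 libraries (median 88.5), a log2 difference of -0.35 (edgeR adjusted p = 0.225). The summed level of the list overlapped between the groups, at 4443 to 9398 CPM in Psmb5 and 4262 to 9170 CPM in Psmb8 libraries. The list's median log2 difference from mSc was 0.07 for Psmb5 and -0.04 for Psmb8.

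Of 12 oligodendrocyte lineage markers none was above 0, and the median was -0.12. The myelin regulatory factor Myrf was at -0.70 and Bcas1 at the -2.95 given above, the 2 members with an unadjusted p under 0.05. Of all genes, 4.05% had one in the lower direction. The list's mean was -0.93 in pair 4 and -0.45 in pair 3, and between -0.09 and 0.00 in the other pairs. With replicate 4 left out, 5 of 11 lay above 0 and the median was -0.03, so library 4 decided most of this value. Cycling cell markers, at a median of -0.07 with 0 of 16 above 0, were split between pairs: the mean was -0.56 in pair 1 and -0.57 in pair 3 and positive in the other 4. Without replicate 1 or without replicate 3 the median was -0.01.

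Genes of the interferon response and of antigen presentation, the setting in which Psmb8 is normally induced, did not lie on the higher side. Of 13 immunoproteasome and MHC class I genes, 2 were above 0 and the median was -0.09. None had an unadjusted p under 0.05 in the higher direction and 1 had in the lower, against 3.91% and 4.05% of all genes. Without replicate 6 the median was -0.06 with 4 above 0, and without the libraries numbered 3 and 6 it was -0.03 with 5 above 0. Psmb9, another inducible core subunit, ranged from 0.813 to 14.1 CPM in Psmb5 and from 0.577 to 10.5 CPM in Psmb8 libraries, a log2 difference of -0.32 (edgeR adjusted p = 0.639). The highest libraries were those numbered 3 and 6 in both groups, as for endogenous Psmb8.

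Of 28 interferon-stimulated genes, 4 were above 0 and the median was -0.11. In the lower direction 5 had an unadjusted p under 0.05, where 4.05% of all genes had one. Irf9, a subunit of the interferon-activated transcription factor ISGF3, was at -0.16 (edgeR adjusted p = 0.536) and lower in 6 of 6 pairs, Bst2 at -0.41 and Gbp2 at -0.33. The list's mean was positive in 3 pairs and negative in 3. Without replicate 6 the median was -0.04 with 10 above 0, and with the libraries numbered 3 and 6 left out, 10 lay above 0 and none had an unadjusted p under 0.05.

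NF-kB and inflammatory genes had a median of -0.11 with 3 of 15 above 0. The list's mean lay between -0.50 and -0.34 in pairs 1, 2 and 4 and between 0.02 and 0.03 in the other 3, and without replicate 4 the median was -0.07 with 5 above 0. The cyclooxygenase gene Ptgs2 was at -0.53 (edgeR adjusted p = 0.284) and the adhesion molecule gene Vcam1 at -0.27, the latter lower in 6 of 6 pairs. Bcl3 was at -0.83 (edgeR adjusted p = 0.528), but it averaged only 1.35 CPM and was higher in 2 of 6 pairs. Immediate early genes, which follow neuronal activity, had a median of -0.06 with 6 of 26 above 0. In the lower direction 5 had an unadjusted p under 0.05 (4.05% of all genes had), among them Fosb at -0.31, Egr2 at -0.26 and Homer1 at -0.12. The list's mean was -0.30 in pair 1 and -0.25 in pair 3 and lay between -0.06 and 0.01 in the others. Without replicate 1 the median was -0.04 and 3 genes had such a p, and without replicate 3 these were -0.03 and 1. With all replicates, the median of immediate early genes against mSc was 0.08 for Psmb5 and -0.01 for Psmb8. For NF-kB and inflammatory genes these medians were 0.05 and -0.09. No gene of these lists passed the test in the main fit. In other fits with all replicates some did: 5 NF-kB genes, 2 interferon-stimulated genes and Fosb without the filter on low counts, and Inhba with limma.

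Nuclear-encoded subunits of the respiratory chain lay slightly higher and did so widely. Of 34, 32 were above 0, with a median of 0.04 and a mean difference that was positive in 6 of 6 pairs (0.05 ± 0.05, SD). Only 3 had an unadjusted p under 0.05 in the higher direction, where 3.91% of all genes had one. Ndufa1 of complex I had the smallest p, at a log2 difference of 0.18 (edgeR adjusted p = 0.401). The 13 mitochondrially encoded transcripts had a median of 0.00, with 7 above 0. Glycolysis genes had a median of 0.03, with 17 of 26 above 0. In the higher direction 6 had an unadjusted p under 0.05 (3.91% of all genes had), among them Gpi1 at 0.13, Gapdh at 0.10, Eno1 at 0.10 and Eno2 at 0.12. Medians were 0.02 for the nuclear-encoded subunits without replicate 2 and 0.01 for glycolysis without replicate 1. The pentose phosphate pathway, at 0.01, and cholesterol synthesis, at 0.02, had no member with an unadjusted p under 0.05. The cholesterol value rested on replicate 4: without it the median was -0.08 and 5 of 24 genes lay above 0. Then 7 had an unadjusted p under 0.05 in the lower direction, where 4.23% of all genes had one.

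Tubulin genes, the building blocks of microtubules, had 14 of 14 members above 0, a median of 0.09 and a mean that was positive in 6 of 6 pairs. Of these, 4 had an unadjusted p under 0.05: Tubb4b at 0.14 (edgeR adjusted p = 0.246), Tubb2b at 0.14, Tubb3 at 0.10 and Tuba1a at 0.09. In this direction 3.91% of all genes had one. Reads can be shared between these similar genes, so single isotypes are uncertain.

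Synaptic genes differed little, and mostly on the postsynaptic side. Of 24 postsynaptic scaffold genes, 8 were above 0 and the median was -0.02, but the list's mean was negative in 6 of 6 pairs (-0.04 ± 0.03, SD). In the lower direction 4 had an unadjusted p under 0.05, where 4.05% of all genes had one. Examples were the scaffold gene Shank3 at -0.16 (edgeR adjusted p = 0.246), Nrgn (neurogranin) at -0.15 and the adhesion molecule gene Nlgn1 at -0.10. Grin1, the obligatory NMDA receptor subunit, ranged from 654 to 911 CPM in Psmb5 and from 560 to 759 CPM in Psmb8 libraries, a log2 difference of -0.18 (adjusted p = 0.369) with 6 of 6 pairs lower. Gria3 was at -0.12 and Grin3a at -0.17 among the 22 ionotropic glutamate receptor genes, and Grik1 was at 0.16 and Grin2a at 0.11. Of the 22, 8 were above 0 and the median was -0.01. Presynaptic genes (30) had a median of 0.00 and none at an unadjusted p under 0.05.

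Stress pathways lay near 0. The median was 0.01 for heat shock genes and chaperones, -0.01 for the integrated stress and unfolded protein responses, -0.02 for NRF2, glutathione and ferroptosis genes, 0.02 for ubiquitin, autophagy and lysosome genes, and 0.01 for p53 targets and for cytosolic ribosomal proteins. In the ubiquitin list, 3 of 32 genes had an unadjusted p under 0.05 in the higher direction and 3 in the lower. Over all genes these shares were 3.91% and 4.05%. Vcp, the segregase that hands proteins to the proteasome, was at 0.09 and its cofactor Nploc4 at 0.11, both with an unadjusted p under 0.05. The autophagy regulators Atg7 and Tfeb were at -0.12 and -0.28. No gene of any of the 36 lists passed the test after adjustment in the main fit. Some passed in other fits with all replicates, among them Cort, Gpi1 and Bcas1 with DESeq2 and Gfap with the 12 libraries alone. Without the block, no gene had an unadjusted p under 0.05 in the lists of inhibitory neuron, astrocyte and oligodendrocyte lineage markers, immunoproteasome and MHC class I, interferon, NF-kB, immediate early, nuclear-encoded respiratory chain, tubulin and postsynaptic scaffold genes. In that fit only 0.713% of all genes had one in the higher direction and 0.475% in the lower. Lists of this size would therefore be expected to hold few or none.

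**Figure D5:**
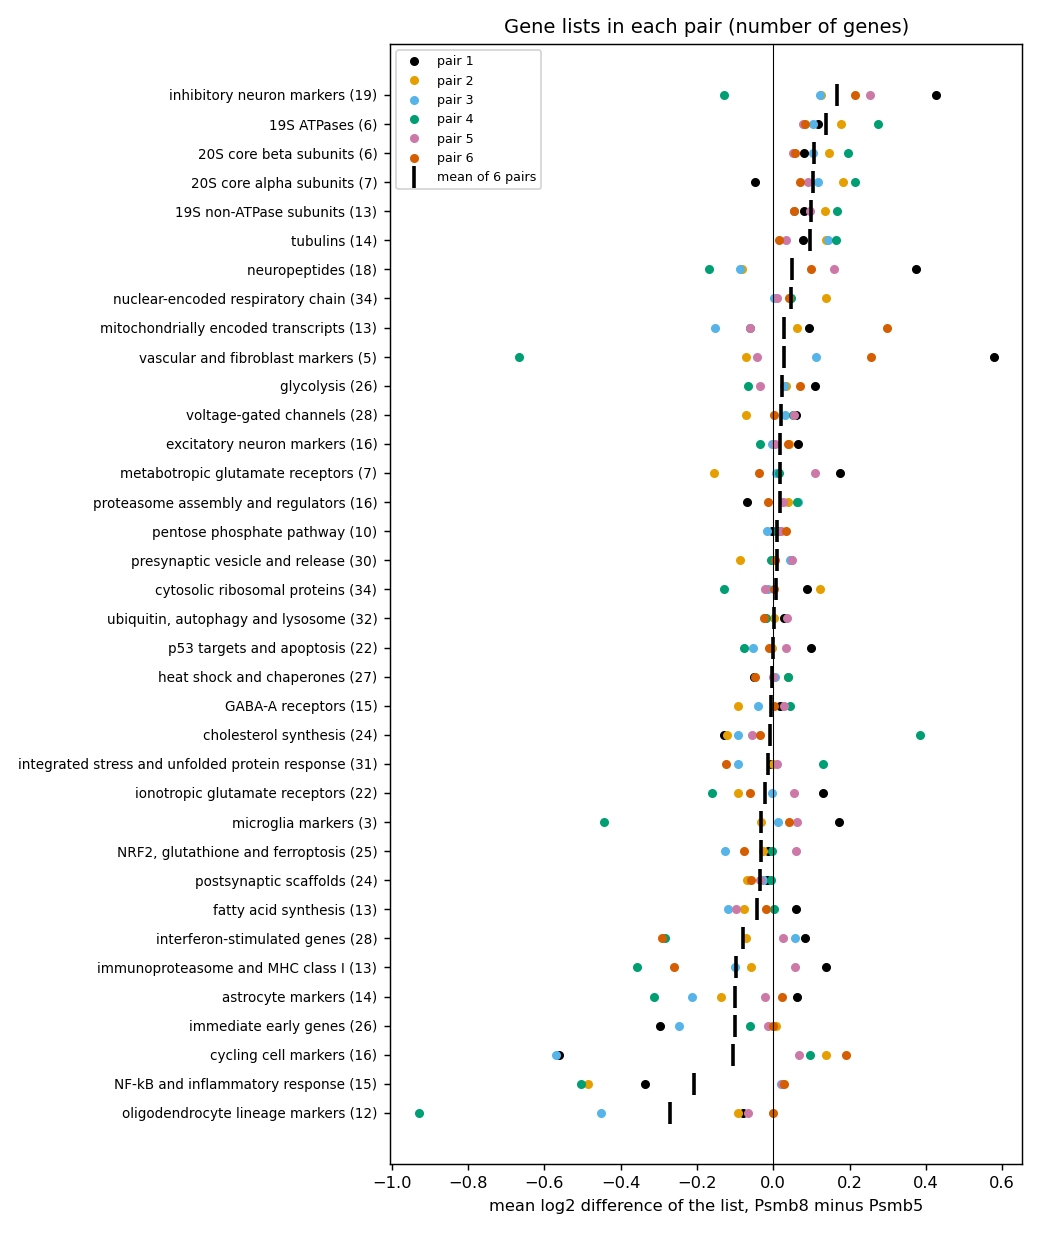
Mean log2 difference of Psmb8 minus Psmb5 over the genes of each list in each of the 6 pairs (points) and their mean (bars), with the number of genes in parentheses. The 4 groups of 26S subunits and the tubulins lie right of 0 in at least 5 of 6 pairs, and pair 4 is the lowest for inhibitory neuron and oligodendrocyte lineage markers.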

How the data were processed

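The authors deposited raw read counts per Ensembl gene, 1 column per library and 18 columns in all; the values were whole numbers with unequal totals, and each column was matched to its sample by title. STAR 2.4 and DESeq2, and the builds GRCm39 and mm10, are named in the submitters' processing notes without a role. The gene counter, its strand setting and its treatment of reads with several matches were not stated in the sources used, so overlapping, antisense and closely similar genes could share reads. Gene coordinates are GENCODE's for GRCm38 and may differ from the build of the counts.

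The test was edgeR's quasi-likelihood test (edgeR 4.0.16, R 4.3.3). Genes were filtered with filterByExpr by group, library sizes were scaled with TMM, and 1 fit over all 18 libraries held group and replicate number. The contrast was Psmb8 minus Psmb5, with Benjamini-Hochberg adjustment across 15671 genes and a threshold of 0.05. Standard errors were derived from the F statistic. CPM refers to TMM-scaled counts in tested genes, which held 99.9% of all counts; counting error is largest for genes near 1 CPM. The fit was tested on simulated data. Alternatives were the fit without the block, the 12 libraries alone, DESeq2 1.42.0, limma 3.58.1 (voom), other scalings and filters, each replicate left out, and replicates 3 and 6 left out together.

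The replicate numbers were taken to pair the libraries. Log2 CPM, centred within each group, correlated between same-numbered Psmb5 and Psmb8 libraries with r from 0.50 to 0.73 in all 6 pairs (mean 0.60). The 30 combinations of unlike numbers ranged from -0.46 to 0.61, and 10 of 12 libraries correlated best with the library of their own number. No 2 libraries of a group agreed within counting noise (chi-square per degree of freedom 2.94 to 36.2 over 30 pairs).

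The genes and the 36 lists were chosen with earlier results of these data known, so lists are described by counts and medians without a set test, beside the same over all genes. Named genes were Psmb5, Psmb8, the 12 top genes in each direction (called genes first by size of change, then those with the smallest p, without predicted-gene symbols), and, for each list, called members or the one with the smallest p. List members named beyond these were chosen after their values were seen.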

Additional observations from a re-analysis of the deposited data

Results flagged for a closer look

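In each set of 6 pair differences, a pair was marked when its gap to the nearest other pair took up a larger part of the whole range than the 95% critical value of Dixon's test. Of 98 sets, 6 were marked; chance marks about 1 in 20. The Psmb5 log2 difference was -2.26 in pair 2, where the Psmb5 library held least transgene transcript, and -3.53 to -3.17 in the other pairs. Bcas1 was at -3.56 in pair 4 and between -1.69 and -0.85 in the others. Mt2 was at -0.73 in pair 1 and between -0.28 and -0.06 in the others.

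The remaining 3 were means over lists. Nuclear-encoded respiratory chain genes averaged 0.14 in pair 2 and 0.00 to 0.05 in the others. Cholesterol synthesis genes averaged 0.39 in pair 4 and -0.13 to -0.03 in the others. Microglia markers, of which only 3 reached 1 CPM, averaged -0.44 in pair 4 and -0.03 to 0.17 in the others.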

How the results depend on the processing

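Called genes other than the transgenes numbered 1 higher and 3 lower. Without the replicate block edgeR called 0 higher and 0 lower, with 207 genes at an unadjusted p under 0.05, so every call other than the transgenes rests on the pairing; the blocked fits by DESeq2 and limma called 7 higher and 14 lower, and 1 higher and 4 lower. The 12 libraries alone gave 2 higher and 12 lower, no filter on low counts 39 higher and 125 lower, and leaving out the libraries numbered 3 and 6 gave 0 higher and 2 lower (877 genes at an unadjusted p under 0.05). Leaving out 1 replicate gave 0 to 9 higher and 1 to 9 lower; 9 and 9 came without replicate 4, and the 0 higher without replicate 3 or 6 (edgeR, 923 and 1130 genes at an unadjusted p under 0.05). The other scalings and testing only genes at 1 CPM or more left 1 higher and 3 lower. Of 15 alternatives, Lsm11 passed in 14, Mgst3 and Pdpn in 11 and Slc25a22 in 8, each with the same sign in 15. The 26S subunits lay above 0 in 30 to 32 of 32 cases, and inhibitory neuron markers in 15 to 18, over these settings. Log2 differences of genes at 1 to 10 CPM had an SD of 0.18, against 0.05 at 100 CPM or more; how much of this is counting error was not tested.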

Other observations

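Pair 4 differed from the other pairs in several lists at once. Its mean differences were -0.93 for oligodendrocyte lineage, -0.67 for vascular and fibroblast, -0.44 for microglia and -0.31 for astrocyte markers, each the lowest of the 6 pairs. It was also the lowest for inhibitory neuron markers, at -0.13, and for immunoproteasome and MHC class I genes, at -0.36. It was the highest for the 26S subunits, at 0.20, and for cholesterol synthesis, at 0.39. In this pair 581 genes were more than 1.5-fold lower in Psmb8, against 169 to 365 in the others.

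With replicate 4 left out, the genes that rose were Mgst3, Gad1, Cort, Npy, Sst, Crhbp, Col6a1, Rcan2 and Crtac1 (edgeR adjusted p under 0.05). Of these, Gad1, Cort, Npy, Sst and Crhbp are expressed by inhibitory neurons. Those that fell were Lsm11, Pdpn, Slc25a22, Arhgap33, Kctd13, Plagl1, Tmtc2, Inhba and Ddn.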
